A study of Mus musculus with 2 samples.

Results

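The insulin-like growth factor (IGF) system of the newborn mouse ovary was described here by 9 genes out of the 31057 genes in the count matrices. They were taken by symbol as members of the system, by a rule that uses no measured value: the ligand gene Igf1, the receptor genes Igf1r and Insr, and the binding protein genes Igfbp2, Igfbp3, Igfbp4, Igfbp5, Igfbp6 and Igfbp7. IGF1 is a secreted growth factor that signals through the receptor tyrosine kinase IGF1R, and the insulin receptor INSR is the close relative that takes insulin and, in part, IGFs. Binding proteins capture IGFs outside the cell, which limits or carries the ligand, and proteases release it again. In the ovary the system is known for its part in follicle growth, where IGF1 acts together with follicle-stimulating hormone.

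Single-cell RNA sequencing was done on whole ovaries of untreated female CD1 mice at postnatal day 2, when the first resting follicles have formed. There was 1 group with 2 libraries, replicate 1 and replicate 2, each pooled by the study from the ovaries of several pups of a single female, so single animals cannot be told apart. Each value below rests on counts of unique molecular identifiers (UMIs, 1 per captured RNA molecule). Comparisons were therefore made between cell types within these ovaries, with the library as the replicate.

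Replicate 1 held 4094 cells with 54471790 UMIs and replicate 2 held 4847 cells with 59074480 UMIs. After filtering, 3506 and 3998 cells fell into 7 named cell types, found by clustering without the 9 genes and named from lists of 7 markers each. The cell numbers of replicate 1 and replicate 2 were 237 and 675 for germ-like, 1539 and 382 for granulosa-like, 1397 and 2501 for interstitial-like, 53 and 52 for perivascular-like, 60 and 33 for endothelial-like, 187 and 290 for mesothelial-like, and 33 and 65 for immune-like cells. All 7 markers had their highest level in the cells named from them for 6 of the types, whereas for the granulosa-like cells 4 of 7 did and Kitl, Wnt6 and Wt1 were highest in mesothelial-like cells. Germ-like cells were the richest in RNA, with a median of 76717 and 48519 UMIs per cell against 4287 to 13607 in the other types, so levels are given as CPM, the UMIs of a gene relative to all UMIs of the summed cells, after TMM scaling between the summed samples unless said otherwise. The libraries shared 21 cell barcodes.

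The ligand, the receptors and the binding proteins had different distributions over these cell types. Igf1 was highest in immune-like and interstitial-like cells, and Igf1r lay between 35.5 and 104 CPM in 6 of the 7 types. Each of the 6 binding proteins was called higher in 1 to 3 types, and the types differed from one binding protein to the next. The share of all genes called higher in some type was not counted, so this count does not set them apart. Mesothelial-like cells, which cover the ovary, were highest for Igfbp2 and Igfbp5, interstitial-like cells for Igfbp4 and Igfbp6, and endothelial-like cells for Igfbp7, while Igfbp3 was high in both mesothelial-like and endothelial-like cells.

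**Figure D1:**
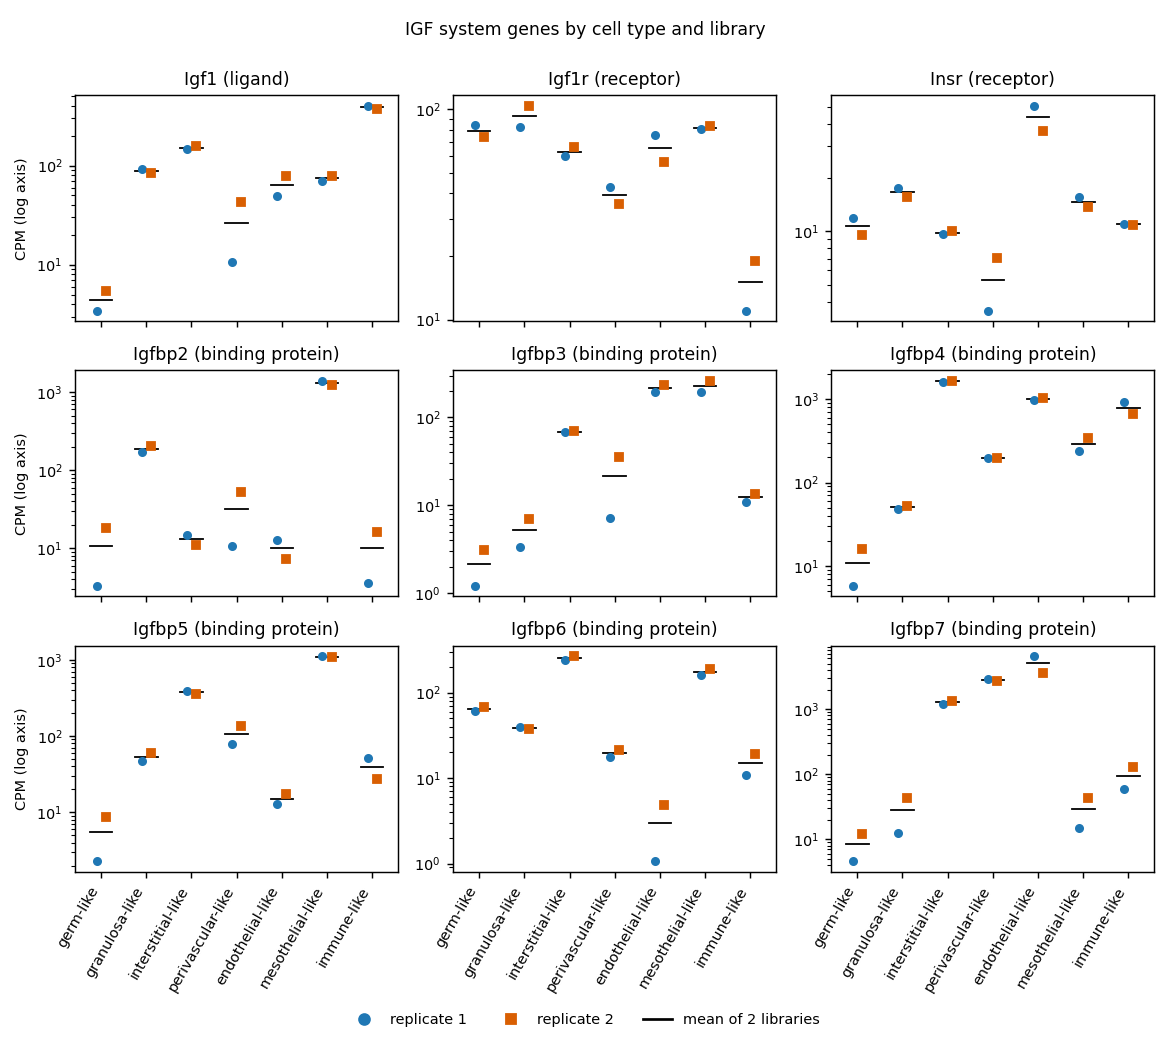
Level of each of the 9 genes (CPM after TMM scaling, log axis, a separate scale for each gene) in 7 cell types; the circle is replicate 1, the square is replicate 2 and the bar is their mean. Igf1r lies between 35.5 and 104 CPM in every type except the immune-like cells. The means of Igfbp2, Igfbp3, Igfbp4, Igfbp5 and Igfbp7 span more than 100-fold between the highest and the lowest type.

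Each cell type was set against the pooled UMIs of the remaining named cells of its library with edgeR's quasi-likelihood test. A gene was called when its log2 fold change was beyond 1 in either direction and its p, adjusted by Benjamini-Hochberg over the whole table, was under 0.05. Of 63 pairs of gene and cell type, 15 were called higher (23.8%, against 14.4% over all genes and types) and 25 lower (39.7%, against 19.5%). Both libraries had the same direction in all 40 called pairs, which calls made on these same libraries largely require. Because such a pool weights each type by its UMIs, the same contrasts were also fitted with the types weighted equally. There the reference was the mean of the log2 levels of the other types, which types near 0 pull down. This fit gave 18 higher and 16 lower. Over all genes and types, 14517 pairs were then called higher and 6043 lower out of 100030. The main fit had 15648 higher and 21314 lower out of 109033.

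By cell type, the interstitial-like cells had 6 of the 9 genes higher and 1 lower, where 17.5% and 27.4% of all genes were called. Endothelial-like cells had 4 higher and 3 lower (9.68% and 15.4% of all genes), and mesothelial-like cells 3 higher and 1 lower (11.2% and 20.4%). Perivascular-like cells had 1 higher and 3 lower (4.69% and 5.19%), and immune-like cells 1 higher and 5 lower (9.86% and 10.6%). No member was higher in germ-like or granulosa-like cells. In the former 7 were lower and in the latter 5, against 31.1% and 25.8% of all genes called lower there and 29.5% and 17.1% called higher. The median log2 fold change of the 9 genes was lowest in germ-like cells, at -4.75, and highest in interstitial-like cells, at 1.83, where the medians over all genes tested were 0.01 and -0.13.

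**Figure D2:**
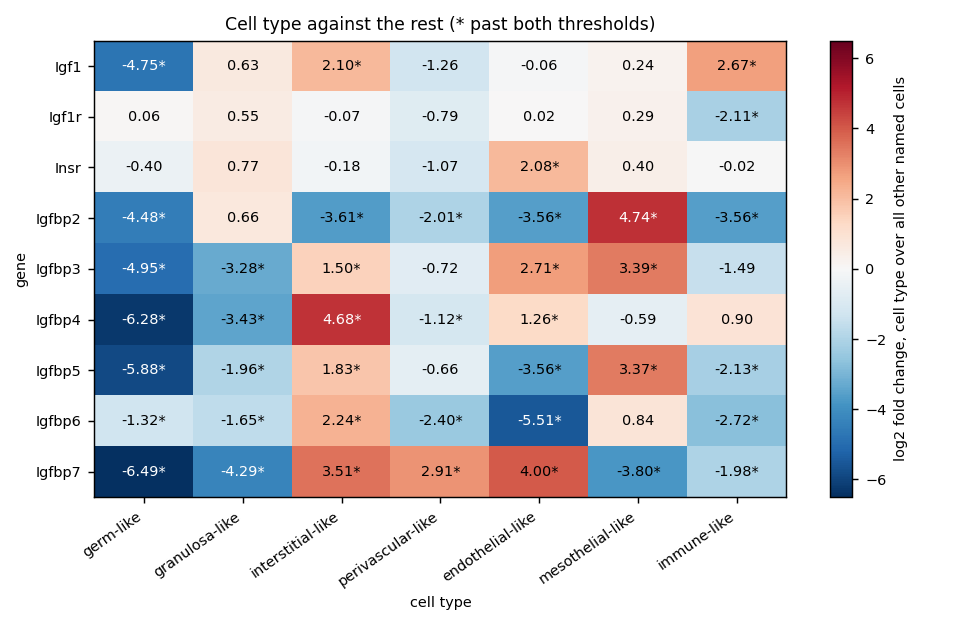
Log2 fold change of each gene in each cell type over the pooled UMIs of the remaining named cells (red higher, blue lower; an asterisk marks pairs past both thresholds, 2 libraries against 2). The column of interstitial-like cells holds 6 of the 15 higher calls, and the germ-like column holds 7 of the 25 lower calls.

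Igf1 (ENSMUSG00000020053, chromosome 10: 87858265-87937042, plus strand, GRCm38), the ligand gene, was measured at 402 CPM in replicate 1 and 376 CPM in replicate 2 in immune-like cells. Interstitial-like cells had 146 and 157 CPM, granulosa-like cells 91.5 and 84.8, mesothelial-like cells 70.2 and 79.3, and the endothelial-like type 48.8 and 78.1. Perivascular-like cells had 10.6 and 42.6 CPM, from 3 and 12 UMIs, and germ-like cells 3.41 and 5.49 CPM. The immune-like, interstitial-like and granulosa-like values did not overlap, and the germ-like cells were the lowest in both.

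Against all other cells, Igf1 was higher in immune-like cells by 2.67 (log2, SE 0.21, adjusted p = 1.97e-05) and in interstitial-like cells by 2.10 (SE 0.31, adjusted p = 9.22e-04), and lower in germ-like cells (log2 -4.75, SE 0.29, adjusted p = 5.88e-04). Granulosa-like cells were 0.63 above the rest on the log2 scale (SE 0.12, adjusted p = 0.00302), which is under the 2-fold limit. In the order of mean levels, immune-like differed from interstitial-like cells (log2 1.36, adjusted p = 0.00113), interstitial-like from granulosa-like (0.78, adjusted p = 0.0169) and perivascular-like from germ-like (2.55, adjusted p = 0.00163). The steps between granulosa-like, mesothelial-like, endothelial-like and perivascular-like cells did not pass the test, with adjusted p from 0.15 to 0.546.

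The immune-like cells held 2 clusters, and the Igf1 level differed between them. The cluster led by the complement genes C1qa, C1qc and C1qb, which mark tissue macrophages, had 454 and 408 CPM (CPM of clusters are without TMM scaling). The cluster led by Rgs1, Cd52 and Arg1, with the T cell gene Cd3g, had 0 and 30.9 CPM, from 0 and 3 UMIs in 8 and 17 cells. Nearly all Igf1 UMIs of the immune-like cells, 110 of 110 and 135 of 138, thus came from the first cluster. Although immune-like cells had the highest level, they supplied 2.94% and 3.74% of the Igf1 UMIs of all named cells. They numbered 33 and 65 cells.

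Igf1r (ENSMUSG00000005533, chromosome 7: 67952827-68233668, plus strand), the receptor of IGF1, lay between 35.5 and 104 CPM outside the immune-like cells. Granulosa-like cells had 82.6 and 104 CPM, mesothelial-like cells 80.6 and 83.4, and germ-like cells 84.6 and 73.9. Endothelial-like cells had 75.3 and 56.1 CPM, interstitial-like cells 59.9 and 66.1, perivascular-like cells 42.5 and 35.5, and immune-like cells 11.0 and 19.1, from 3 and 7 UMIs. The ranges of granulosa-like, mesothelial-like and germ-like cells overlapped, and immune-like cells were the lowest in both libraries.

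The low level in immune-like cells passed the test (log2 -2.11, SE 0.37, adjusted p = 0.00357), whereas with every cell thinned to 2000 UMIs it did not (log2 -2.02, adjusted p = 0.104). No neighbours in the order of Igf1r levels differed, with adjusted p from 0.0707 to 0.804 over the 6 steps. Types further apart in the order did. Granulosa-like cells were above immune-like cells, the other end, by 2.58 on the log2 scale (SE 0.32, adjusted p = 3.47e-05). They were above perivascular-like cells by 1.25 (SE 0.27, adjusted p = 0.00515) and above interstitial-like cells by 0.56 (SE 0.17, adjusted p = 0.014). Germ-like and granulosa-like cells differed by -0.23 (SE 0.16, adjusted p = 0.215). Per cell rather than in CPM, a germ-like cell held 5.66 and 2.83 Igf1r UMIs and a granulosa-like cell 1.03 and 1.41.

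Insr (ENSMUSG00000005534, chromosome 8: 3122061-3279617, minus strand), the insulin receptor gene, was highest in endothelial-like cells, at 50.9 and 36.6 CPM from 48 and 15 UMIs. The other 6 types lay between 3.54 and 17.5 CPM, below both endothelial-like values. Insr was higher in endothelial-like cells than in the rest (log2 2.08, SE 0.31, adjusted p = 6.15e-04) and differed there from the next type, granulosa-like cells (log2 1.44, adjusted p = 4.93e-04). None of the other 5 steps passed, with adjusted p from 0.565 to 0.956. After thinning to 2000 UMIs per cell the endothelial difference was 1.64 and no longer passed (adjusted p = 0.246), with 2 of 60 and 4 of 33 cells then holding a UMI.

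Igfbp2 (ENSMUSG00000039323, chromosome 1: 72824503-72852474, plus strand) and Igfbp5 (ENSMUSG00000026185, chromosome 1: 72857932-72874884, minus strand) encode secreted binding proteins and lie end to end, 5457 bases apart, in opposite directions. Both had their highest level in mesothelial-like cells. Their promoters are shown because this pair shares a locus and a leading cell type. Each line gives 250 bases before the start of transcription in RefSeq, 5′ to 3′ on the strand of the gene (build GRCm38.p6; Igfbp2 chr1:72824230-72824479, Igfbp5 chr1:72874866-72875115), with capitals for the motif TATAAA, the GC box motif GGGCGG or the motif CCAAT on either strand.
Igfbp2 promoter: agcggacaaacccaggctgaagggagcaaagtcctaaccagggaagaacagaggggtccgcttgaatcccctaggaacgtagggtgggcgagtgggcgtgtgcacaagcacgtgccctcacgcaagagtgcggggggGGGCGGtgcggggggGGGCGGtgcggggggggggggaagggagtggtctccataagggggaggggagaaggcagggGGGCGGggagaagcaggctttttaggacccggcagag
Igfbp5 promoter: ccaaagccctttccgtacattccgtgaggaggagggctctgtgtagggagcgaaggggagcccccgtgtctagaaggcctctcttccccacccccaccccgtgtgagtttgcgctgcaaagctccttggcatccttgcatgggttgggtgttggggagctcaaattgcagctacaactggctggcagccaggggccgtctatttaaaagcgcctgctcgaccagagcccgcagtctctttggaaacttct
The Igfbp2 window held GGGCGG 3 times, a motif present in 32.7% of 32851 mouse promoters of the same table and length, and neither of the other motifs. RefSeq lists another start of Igfbp2, and the window before it (chr1:72825137-72825386, not printed) held none of the 3. The Igfbp5 window held none of the 3. TATAAA occurs in 12.4% and CCAAT in 33.8% of those promoters. Of the 9 genes, 8 had an entry in the table.

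Mesothelial-like cells had 1399 and 1243 CPM of Igfbp2, and granulosa-like cells 174 and 202. The other 5 types lay between 3.28 and 53.2 CPM, below all values of those types. Against the rest, Igfbp2 was higher in mesothelial-like cells by 4.74 (log2, SE 0.37, adjusted p = 2.10e-04). It was lower in interstitial-like (log2 -3.61), endothelial-like (-3.56), immune-like (-3.56), germ-like (-4.48) and perivascular-like cells (-2.01), with adjusted p from 1.33e-05 to 0.038, and the endothelial-like, immune-like and perivascular-like calls did not pass with the types weighted equally (adjusted p 0.0721, 0.145 and 0.964). The first 2 steps in the order passed, from mesothelial-like to granulosa-like cells (log2 2.81, adjusted p = 0.00106) and from granulosa-like to perivascular-like cells (2.56, adjusted p = 0.0292). Granulosa-like cells were 0.66 above the rest (SE 0.12, adjusted p = 0.00286), within 2-fold, and 2.65 above with the types weighted equally (adjusted p = 9.66e-05). Of all Igfbp2 UMIs in named cells, mesothelial-like cells supplied 54.6% and 75.8%.

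Igfbp5 was measured at 1123 and 1072 CPM in mesothelial-like cells, 394 and 351 in interstitial-like cells and 78.0 and 135 in perivascular-like cells. The other 4 types had 2.27 to 59.5 CPM. The first 3 types were thus separated in both libraries, and the difference from the rest was 3.37 in mesothelial-like cells (log2, SE 0.14, adjusted p = 3.63e-05) and 1.83 in interstitial-like cells (SE 0.20, adjusted p = 2.51e-04). Lower levels were called in endothelial-like (log2 -3.56), germ-like (-5.88), granulosa-like (-1.96) and immune-like cells (-2.13), with adjusted p from 7.22e-06 to 0.00264. The granulosa-like and immune-like calls did not pass with equal weights (adjusted p 0.33 and 0.208). Mesothelial-like cells were above interstitial-like cells by 1.56 (adjusted p = 0.00466) and these above perivascular-like cells by 1.81 (adjusted p = 0.0244), and no later step passed. In contrast to Igfbp2, which was called lower in interstitial-like cells, Igfbp5 was thus called higher there.

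Igfbp3 (ENSMUSG00000020427, chromosome 11: 7206086-7213923, minus strand), the gene of the main IGF carrier in blood, was measured at 196 and 262 CPM in mesothelial-like cells and 196 and 237 CPM in endothelial-like cells. Interstitial-like cells had 67.6 and 70.6 CPM, perivascular-like cells 7.09 and 35.5, and the immune-like, granulosa-like and germ-like cells 1.20 to 13.6. The mesothelial-like and endothelial-like values overlapped (log2 difference 0.10, SE 0.33, adjusted p = 0.886), and both lay above all others. Against the rest, Igfbp3 was higher in mesothelial-like (log2 3.39, SE 0.23, adjusted p = 1.27e-04), endothelial-like (2.71, SE 0.27, adjusted p = 2.90e-05) and interstitial-like cells (1.503, SE 0.27, adjusted p = 0.00244), and lower in germ-like (-4.95, adjusted p = 0.00238) and granulosa-like cells (-3.28, adjusted p = 8.96e-05). The interstitial-like call did not pass after thinning (log2 1.13, adjusted p = 0.0788). The granulosa-like call did not pass when cells were typed one by one from markers (log2 -1.27, adjusted p = 0.135) or clustered more coarsely (log2 -1.495, adjusted p = 0.0642).

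Igfbp4 (ENSMUSG00000017493, chromosome 11: 99041244-99054392, plus strand) encodes a binding protein known as an inhibitor of IGF action that is cleaved by the protease PAPP-A, and Igfbp7 (ENSMUSG00000036256, chromosome 5: 77349240-77408041, minus strand) encodes a secreted relative of lower affinity for IGFs that is found in vessel walls. Both were called higher in interstitial-like and endothelial-like cells. Their promoter windows are printed as the counterpart to the mesothelial pair, in the same way and build (Igfbp4 chr11:99040994-99041243, Igfbp7 chr5:77408046-77408295).
Igfbp4 promoter: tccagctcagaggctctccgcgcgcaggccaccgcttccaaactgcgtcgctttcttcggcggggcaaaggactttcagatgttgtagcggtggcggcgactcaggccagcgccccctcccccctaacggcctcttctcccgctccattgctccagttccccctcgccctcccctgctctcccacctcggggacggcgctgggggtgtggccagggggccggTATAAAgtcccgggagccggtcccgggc
Igfbp7 promoter: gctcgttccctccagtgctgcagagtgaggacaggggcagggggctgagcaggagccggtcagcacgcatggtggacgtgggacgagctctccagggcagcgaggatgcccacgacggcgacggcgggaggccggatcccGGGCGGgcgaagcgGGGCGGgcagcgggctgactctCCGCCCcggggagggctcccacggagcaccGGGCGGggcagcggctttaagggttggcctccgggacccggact
The Igfbp4 window held 1 TATAAA, 28 bases before the start, and the Igfbp7 window held GGGCGG 4 times, so the windows shared none of the 3 motifs. These matches describe the letters and not the binding of a factor.

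Interstitial-like cells had 1610.1 and 1653 CPM of Igfbp4, endothelial-like cells 974 and 1020.1, and immune-like cells 914 and 659. Mesothelial-like cells had 241 and 344 CPM, perivascular-like cells 198 and 195, granulosa-like cells 47.9 and 52.6, and germ-like cells 5.74 and 16.1. The interstitial-like values lay above all others in both libraries, although the step to endothelial-like cells did not pass the test (log2 0.71, SE 0.31, adjusted p = 0.119). Against the rest, Igfbp4 was higher in interstitial-like cells by 4.68 (log2, SE 0.20, adjusted p = 1.62e-05) and in endothelial-like cells by 1.26 (SE 0.20, adjusted p = 7.92e-04). It was lower in germ-like (log2 -6.28, adjusted p = 0.00188), granulosa-like (-3.43, adjusted p = 7.10e-06) and perivascular-like cells (-1.12, adjusted p = 0.0233). The endothelial-like difference was -0.090 after thinning to 2000 UMIs per cell (adjusted p = 0.87) and 2.42 with the types weighted equally. Thinning also weights the pooled cells alike, so RNA-rich cells count for less in the rest. Thinned endothelial-like cells held 1.72 and 2.15 Igfbp4 UMIs per cell and interstitial-like cells 3.35 and 3.44. Whether depth or these weights moved the difference was not tested. The perivascular-like call did not pass with equal weights (log2 -0.31, adjusted p = 0.656).

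In the order of Igfbp4 levels, immune-like differed from mesothelial-like cells (log2 1.42, adjusted p = 0.00521), perivascular-like from granulosa-like (1.97, adjusted p = 0.00207) and granulosa-like from germ-like cells (2.18, adjusted p = 4.67e-05). As with Igf1, the immune-like level came from the C1qa cluster, which had 1024 and 709.8 CPM against 44.1 and 72.2 CPM in the other immune-like cluster. Among the 7 interstitial-like clusters Igfbp4 lay between 1063 and 2104 CPM and was lowest in a cluster led by the mitosis genes Pimreg and Depdc1a.

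Igfbp7 reached 6583 and 3605 CPM in endothelial-like cells, 2934 and 2688 in perivascular-like cells and 1210.1 and 1329.5 in interstitial-like cells. The other 4 types had 4.60 to 131 CPM. The 3 high types were separated from the rest in both libraries, but the step from endothelial-like to perivascular-like cells (log2 0.86, SE 0.53, adjusted p = 0.405) and from these to interstitial-like cells (1.15, SE 0.54, adjusted p = 0.268) did not pass. The endothelial-like level was the one that differed most between the libraries among these 3, with the higher value in replicate 1. Against the rest, Igfbp7 was higher in endothelial-like (log2 3.997, SE 0.30, adjusted p = 4.56e-06), perivascular-like (2.91, SE 0.16, adjusted p = 7.73e-05) and interstitial-like cells (3.51, SE 0.39, adjusted p = 2.44e-04). It was lower in mesothelial-like (log2 -3.80), granulosa-like (-4.29), germ-like (-6.49) and immune-like cells (-1.98), with adjusted p from 4.56e-04 to 0.00182, of which the immune-like call did not pass with equal weights (adjusted p = 0.17). Igfbp7 was called in all 7 types, more than any other of the genes. It overlaps the exons of Polr2b by 85 bases on the opposite strand, where the counting keeps strands apart.

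Igfbp6 (ENSMUSG00000023046, chromosome 15: 102144362-102149511, plus strand), whose product prefers IGF2 over IGF1, was measured at 244 and 269.8 CPM in interstitial-like cells and 163 and 190.4 CPM in mesothelial-like cells. Germ-like cells came next, at 60.6 and 67.9 CPM, before granulosa-like cells at 39.5 and 37.1. Perivascular-like cells had 17.7 and 21.3 CPM, immune-like cells 11.0 and 19.1, and the endothelial-like type 1.06 and 4.88, from 1 and 2 UMIs. The first 4 types were separated from each other in both libraries, and each of these 3 steps passed, at log2 0.54 (adjusted p = 0.0223), 1.46 (adjusted p = 4.01e-06) and 0.74 (adjusted p = 0.00129). Per cell rather than in CPM, a germ-like cell held 4.05 and 2.60 Igfbp6 UMIs. An interstitial-like cell held 1.85 and 1.78 and a mesothelial-like cell 2.68 and 2.84.

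Igfbp6 was higher than the rest in interstitial-like cells (log2 2.24, SE 0.22, adjusted p = 1.48e-04) and lower in endothelial-like (-5.51, SE 0.51, adjusted p = 1.89e-05), immune-like (-2.72, adjusted p = 0.00141), perivascular-like (-2.40, adjusted p = 0.00895), granulosa-like (-1.65, adjusted p = 6.57e-05) and germ-like cells (-1.32, SE 0.32, adjusted p = 0.0172). In germ-like cells the direction depended on the comparison. With the types weighted equally the germ-like level was 0.98 above the mean of the log2 levels of the others (adjusted p = 1.05e-04). That mean takes in the low endothelial-like level, from 1 and 2 UMIs. In granulosa-like cells equal weights gave 0.11 (adjusted p = 0.721). The mesothelial-like cells were 0.84 above the rest (SE 0.20, adjusted p = 0.0149), within 2-fold, and 2.68 above with equal weights (adjusted p = 1.78e-08).

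RNA released from other cells enters droplets, so the low levels in germ-like cells were set beside 7 markers of interstitial-like cells that oocytes should lack. In germ-like cells these markers had 0.231% to 0.391% of their interstitial-like level (plain CPM) in replicate 1 and 0.518% to 0.975% in replicate 2. The level of Igfbp4 was 0.333% and 0.881%, and that of Igfbp7 was 0.355% and 0.829%, within the range of the markers in both libraries. Igf1 was above the range, at 2.18% and 3.17% of its interstitial-like level. Igfbp6 stood further above it, at 23.2% and 22.8%. Igf1r was at 132% and 101%, and Insr at 115% and 86.4%. Granulosa-like cells supplied 47.2% and 11.9% of the Igf1 UMIs but were not used as a reference. In plain CPM, their markers Foxl2, Fst and Wnt6 had 2.07 to 2.62 in germ-like cells of replicate 1 and 20.8 to 22.7 in replicate 2. In granulosa-like cells these had 320 to 768 and 354 to 501. The rest of that marker list differed in germ-like cells. Amhr2 had 3.78 and 28.6 there, Wt1 5.18 and 30.9, Kitl 1.89 and 3.52, and Fshr 0 and 0. Whether Igf1 in germ-like cells exceeds RNA from granulosa-like cells was not tested. For Igfbp2, Igfbp5 and Igfbp3 the reference was the mesothelial-like cells, whose 7 markers had 0.0250% to 7.72% and 0.113% to 4.43% of their level in germ-like cells. Igfbp2 (0.233% and 1.40%), Igfbp5 (0.201% and 0.789%) and Igfbp3 (0.607% and 1.16%) lay within these ranges. The ranges were wide, with medians of 0.246% and 0.532%, so lying within them separates little. Igfbp5 and Igfbp3 were also called higher in interstitial-like cells. At 0.538% and 2.25% (Igfbp5) and 1.66% and 4.01% (Igfbp3) of their interstitial-like level, both were above the interstitial marker range in both libraries. A gene with several source types can exceed the marker range of any single one of them.

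The share of germ-like cells with at least 1 UMI placed Igf1r and Igfbp6 above a marker of interstitial-like cells, and Igf1, Igfbp4 and Igfbp7 below it. Igf1r was detected in 86.5% and 67.7% and Igfbp6 in 78.9% and 60.1% of germ-like cells, against 38.4% and 43.6% for the interstitial marker Dcn. Igf1 (19.4% and 15.4%), Igfbp4 (23.2% and 28.3%) and Igfbp7 (22.4% and 21.9%) were detected in fewer germ-like cells than Dcn. With all cells thinned to 2000 UMIs the shares were 12.4% and 11.1% for Igf1r, 8.89% and 10.5% for Igfbp6, 2.22% and 5.78% for Dcn, 1.78% and 1.19% for Igf1, and 2.22% and 3.23% for Igfbp4. Igf1r and Igfbp6 thus stayed above the marker at equal depth and Igf1 and Igfbp4 did not. However, Dcn was far more abundant in interstitial-like cells, at 3195 and 3552 CPM without TMM scaling. Igf1 had 146 and 157 CPM there after TMM scaling. A share below that of Dcn therefore cannot place Igf1. Its level lay above the interstitial marker range but was not set against granulosa markers. In granulosa-like cells thinned in the same way, Igf1r was found in 14.4% and 20.3% of cells, above the oocyte marker Ooep at 2.28% and 6.58%.

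At equal depth, 4 of the 6 binding proteins were found in over 50% of the cells of their leading type. Igfbp7 was detected in 100% and 93.9% of endothelial-like and in 100% and 100% of perivascular-like cells, Igfbp4 in 93.5% and 93.1% of interstitial-like cells, and Igfbp2 in 89.8% and 85.9% of mesothelial-like cells. Igfbp5 was detected in 79.1% and 74.9% of mesothelial-like cells. The other two were found in fewer cells: Igfbp6 in 37.6% and 40.8% of interstitial-like cells, and Igfbp3 in 27.3% and 29.0% of mesothelial-like cells and in 7.58% to 9.86% of interstitial-like cells. Igf1 was detected in 25.3% and 25.1% of interstitial-like, 29.6% and 29.3% of immune-like and 16.0% and 15.3% of granulosa-like cells. As counted, 23 of the 63 pairs of gene and type had a UMI in over 50% of cells, and 8 did at 2000 UMIs per cell.

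The cells of a type were not uniform. Clusters were drawn without the 9 genes, so their levels between clusters are given as a description. Among 4 granulosa-like clusters, the one led by Hsd3b1 and by Amh, a hormone gene of follicles that have begun to grow, had the highest Igf1, at 121 and 131 CPM against 61.6 to 88.0 CPM in the other 3. The same cluster had the lowest Igfbp2, at 83.0 and 97.7 CPM, compared with 301 and 279.7 CPM in the cluster led by H2-M2 and Cxcl10 and 275 and 284 CPM in the cluster led by Gm37350 and Wfdc10. The cluster led by Serpina1b also held Amh among its first 10 genes. It had 88.0 and 70.3 CPM of Igf1 and 142 and 182 CPM of Igfbp2, so Amh alone does not single out the Hsd3b1 cluster. Igfbp6 followed Igfbp2, with 15.8 and 9.54 CPM in the Hsd3b1 cluster and 66.0 and 69.5 CPM in the H2-M2 cluster. In these cells the ligand and the binding proteins Igfbp2 and Igfbp6 thus ran in opposite directions between clusters. Like these binding proteins, Igf1r was lowest in the Hsd3b1 cluster, at 78.5 and 90.9 CPM. It was highest in the H2-M2 cluster, at 94.6 and 137 CPM, a 1.20-fold and 1.51-fold difference.

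Among the 7 interstitial-like clusters, Igfbp3 had the widest range. The cluster led by Lum and Sfrp1 had 117 and 213 CPM, and the cluster with the lowest level had 7.89 and 7.82 CPM, a 14.9-fold and 27.3-fold difference within the 2 libraries. The Lum cluster also had the highest Igf1 (194 and 232 CPM) and Igfbp6 (345 and 369 CPM), while the cluster lowest for Igfbp3 also had the lowest mean Igf1 (122 and 104 CPM). Igfbp5 was highest in replicate 1 in the cluster led by Pdlim3 and Kcnip1 (535 and 456 CPM) and in replicate 2 in the Lum cluster (411 and 498 CPM). Igfbp7 differed by 1.32-fold and 1.40-fold between its highest and lowest cluster. Germ-like cells of replicate 1 were mostly of one cluster (197 of 237 cells) and those of replicate 2 mostly of others (438 of 675 in one of them), and within the cluster that led in each library Igf1r was at 83.0 and 71.0 CPM and Igfbp6 at 59.4 and 64.2 CPM. A further germ-like cluster, led by Nlrp5 and Mael, had 45.9 CPM of Igf1r and 65.2 CPM of Igfbp6 in replicate 2, from 226 cells.

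**Figure D3:**
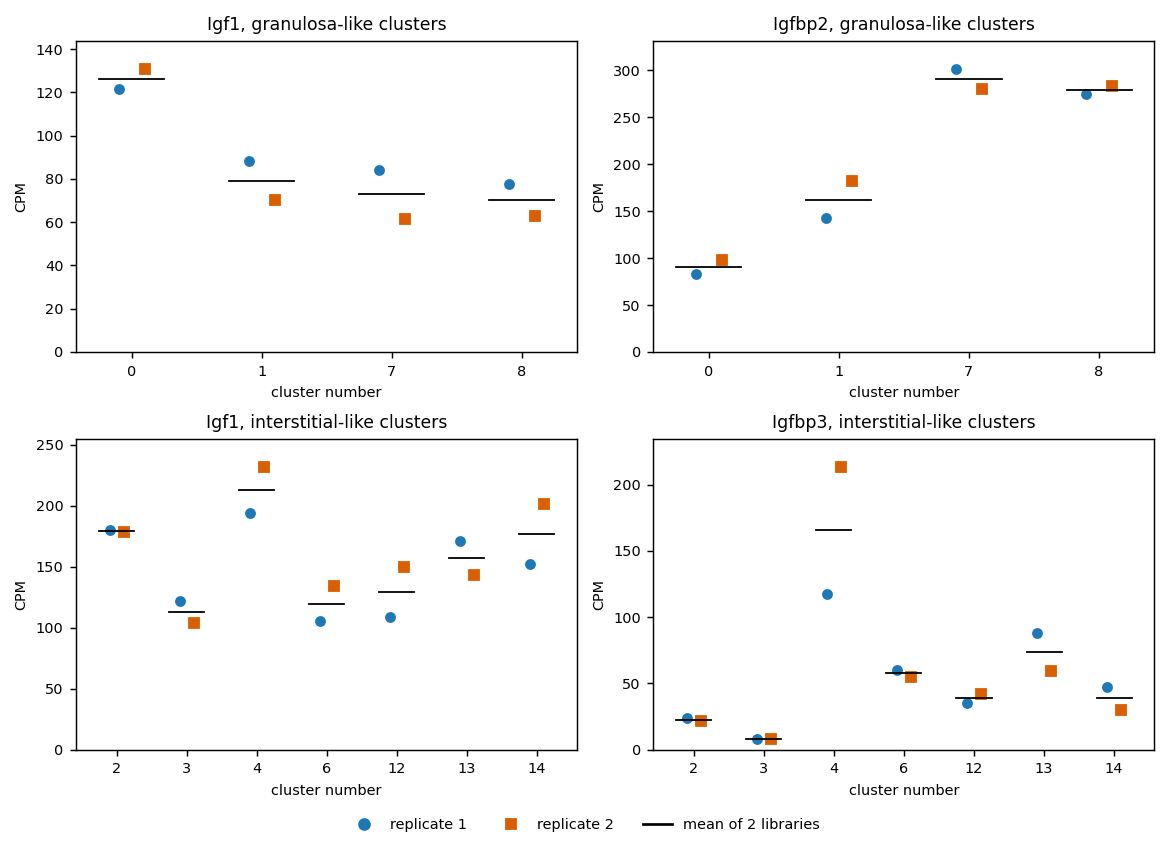
Levels of Igf1 and Igfbp2 in the 4 granulosa-like clusters and of Igf1 and Igfbp3 in the 7 interstitial-like clusters (CPM without TMM scaling, axis from 0; circle replicate 1, square replicate 2, bar the mean). The Hsd3b1 cluster, cluster 0, is highest for Igf1 and lowest for Igfbp2 in both libraries, and Igfbp3 is highest in the Lum cluster, cluster 4.

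The UMIs of each gene were also split by the cell type that supplied them, which reflects the cells captured as well as their levels. Interstitial-like cells supplied 85.1% and 90.4% of the Igfbp4 UMIs and 63.4% and 87.9% of the Igfbp7 UMIs, although the Igfbp7 level in CPM was higher in endothelial-like cells, which supplied 30.7% and 5.93%. For Igf1r, germ-like cells supplied 34.4% and 48.5% and granulosa-like cells 40.8% and 13.7%. The leading supplier of Igf1 differed between the libraries: granulosa-like cells gave 47.2% in replicate 1 and 11.9% in replicate 2, and interstitial-like cells 41.4% and 70.0%. The number of granulosa-like cells captured differed in the same way, 1539 and 382, whereas the granulosa-like level of Igf1 (91.5 and 84.8 CPM) did not. Whether cell numbers account for the shift was not tested.

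**Figure D4:**
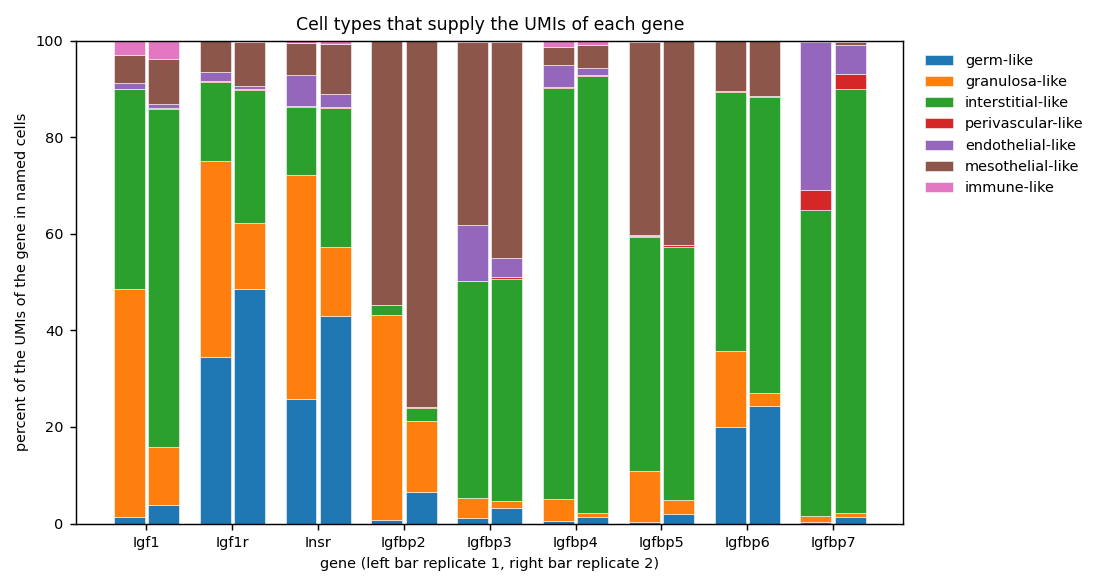
Percent of the UMIs of each gene in named cells that came from each cell type (left bar replicate 1, right bar replicate 2; each bar sums to 100%). Germ-like and granulosa-like cells together supply most Igf1r and Insr UMIs in both libraries, Igfbp4 and Igfbp7 are mostly interstitial-like, and Igfbp2 is mostly mesothelial-like.

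Over the 54 steps between neighbouring cell types in the order of each gene's level, 19 passed the test in the joint fit (35.2%, against 33.6% of all genes over the same contrasts, from 7.25% between interstitial-like and perivascular-like cells to 74.2% between germ-like and interstitial-like cells). These shares cannot be compared directly. The steps join types adjacent in the order of each member, whereas all genes were counted over those contrasts without such an order. Genes whose pattern over the 14 summed samples (7 types, 2 libraries) was most like that of a member were taken by Pearson correlation of log2(CPM + 1) among 13995 genes. Closest were Dab2 to Igf1 (r = 0.963), Nectin3 to Igf1r (0.962), Slc25a30 to Insr (0.942), Aqp5 to Igfbp2 (0.977), Tgm2 to Igfbp3 (0.957), Rps6ka4 to Igfbp4 (0.973), Col12a1 to Igfbp5 (0.970), Gfpt1 to Igfbp6 (0.941) and Rhoj to Igfbp7 (0.982). The next were Tmem86a for Igf1, Pik3ip1 and Clasp1 for Igf1r, Lrp10 and Gchfr for Insr, Gm17660 and Myrf for Igfbp2, Nfib and Hspg2 for Igfbp3, Sh3bp5 and Icam1 for Igfbp4, Hmgn1 and C1qtnf12 for Igfbp5, Dvl2 and Ephb2 for Igfbp6, and Gng11 and Sparcl1 for Igfbp7. The samples share libraries and differ in depth, and the correlations are a description.

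A second list held 30 other genes of the insulin and IGF pathway, of which 26 had enough UMIs to be tested in at least 1 type. Ins1, Igfbp1, Igfbpl1 and Irs4 did not. Over 176 pairs, 33 were higher (18.8%) and 42 lower (23.9%), against 14.4% and 19.5% over all genes, and 22 of the 26 genes were higher in some type. By role, both ligands, both receptors, the 1 carrier, 4 of 5 proteases and inhibitors, 4 of 5 adaptors, 6 of 8 genes of the PI3K arm and the 3 RNA-binding genes were higher somewhere. The share of all genes higher in at least 1 type was not counted, so these counts of genes do not set the pathway apart.

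Among ligands, Igf2 was rare, with 19 and 18 UMIs in mesothelial-like cells (6.18 and 4.16 CPM) and higher there than in the rest (log2 2.83, SE 0.45, adjusted p = 0.00313). Its count is uncertain, since the gene shares 3596 exon bases with Gm49394 on the same strand and reads that fit both genes are not counted. Ins2, an insulin gene, had 18 and 62 UMIs in interstitial-like cells and 0 or 1 UMI in the germ-like, perivascular-like, endothelial-like and immune-like cells of each library. Among receptors, Igf2r, which takes IGF2 up for breakdown, was higher in endothelial-like cells, at 55.2 and 58.6 CPM (log2 1.30, SE 0.25, adjusted p = 0.0031), and lay between 7.31 and 31.6 CPM elsewhere. Insrr, an orphan relative of the insulin receptor, had 38 and 41 UMIs in germ-like cells and 0 in all other named cells, which put it at least 25.8-fold and 13.1-fold higher there, taking 3 UMIs as the limit for a count of 0 in each library. Igfals, whose product holds IGFs and binding proteins in a complex in blood, had 25 and 26 UMIs in germ-like cells and 1 UMI in all other named cells together.

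Of the genes that act on the binding proteins or below the receptors, Pappa2, a protease of binding proteins, was higher in mesothelial-like cells on 5 and 6 UMIs (log2 4.10, adjusted p = 0.00304), an uncertain count because the gene shares 310 exon bases with the long non-coding RNA gene 1600012P17Rik on the same strand. Stc2, an inhibitor of such proteases, was higher in endothelial-like cells, at 14.9 and 31.7 CPM (log2 3.46, adjusted p = 6.20e-04), and also in immune-like cells, on 3 and 4 UMIs, and in granulosa-like cells. With the library as a block the immune-like call of Stc2 did not pass (log2 2.39, adjusted p = 0.0669), and with the types weighted equally neither did the granulosa-like one (log2 1.66, adjusted p = 0.145). The adaptors Grb10 (145 and 117 CPM) and Irs1 (22.1 and 20.4 CPM) were higher in interstitial-like cells, by 3.41 and 2.58 on the log2 scale (adjusted p 7.63e-05 and 1.16e-04), and Grb10 was also higher in endothelial-like cells (164 and 92.7 CPM). In germ-like cells the transcription factor gene Foxo3, which holds oocytes in rest, was at 128 and 131 CPM and 1.87 above the rest (log2, SE 0.22, adjusted p = 0.00213). The RNA-binding gene Igf2bp2 was 1.20 above the rest in germ-like cells (adjusted p = 0.00211) and Igf2bp1 2.38 above it in granulosa-like cells (adjusted p = 0.00251), the latter from 50 and 8 UMIs. Igf2bp1 did not pass with equal weights (log2 0.98, adjusted p = 0.188). After thinning to 2000 UMIs per cell, Igf2r (log2 1.0997, adjusted p = 0.238) and Grb10 (0.84, adjusted p = 0.256) in endothelial-like cells and Igf2bp2 in germ-like cells (0.51, adjusted p = 0.0977) did not pass.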

How the data were processed

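Per the labels and the study's methods, the authors aligned the reads to GRCm38 and counted UMIs with Cell Ranger 3.0.2, and the deposited counts per gene and cell were used as they stand. A cell was kept if it had 500 genes or more and no more than 10% mitochondrial UMIs. Doublets were removed with Scrublet at a score of 0.224. That threshold was found for replicate 1 and was also applied to replicate 2 after its scores had been seen, because the automatic threshold there (0.519) marked 2 cells; 102 and 93 cells were removed. These limits were set here, and the study's own cell filters were not used.

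Cells were clustered in scanpy 1.11.5 (2000 variable genes without members or pathway genes, 30 components, Leiden resolution 1) into 22 clusters. A cluster took the name of the list with the most detected markers, if these were at least 3. The name was dropped if the first 10 genes of the cluster held more markers of another list. It was also dropped if they held none of its own list and the cells were poor in UMIs for their library. By these rules 3 clusters stayed without a name. UMIs were summed per library and type and tested with edgeR 4.0.16 in R 4.3.3, with TMM scaling and its filter on low counts. Each type was set against all other named cells of the same libraries, and neighbouring types were compared in 1 joint fit of the 14 sums. The scripts were tested on simulated data. The libraries are pools of pups, each of a single female, so p-values measure the spread between 2 pools. Cell types of a library share its pups, so the replicate numbers pair the samples; deviations from the type means correlated by 0.0194 to 0.225 within a library, and the fit with the library as a block stands among the alternatives. Neither the members nor the gene and marker lists were chosen blind: earlier results of these data were known. All 9 members are named; of the pathway list, genes called higher in some type could be named, at most 2 per role by fold change, and for each member the 3 genes of highest correlation among those with at least 100 UMIs. A few genes that fall under these rules are not reported here. Shares of cells have exact binomial intervals in the tables, which cover counting error only. Alternatives changed the cell typing, filters, depth, scaling, test, reference and replicates, with DESeq2 1.42.0 as another tool.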

Additional observations from a re-analysis of the deposited data

Results flagged for a closer look

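A cluster of 118 and 238 cells (replicate 1 and replicate 2) was in none of the comparisons, because it had no name. It had 6 granulosa and 5 mesothelial markers, but its first 10 genes held the mesothelial marker Krt8 and no granulosa marker. Its leading genes were Ly6d, Pcp4 and Crygb, with Krt18 among the first 10. All 9 IGF system genes were above the limit of a count of 0 in it, as mean CPM without TMM scaling: Igfbp2 was at 507 (509 and 504 in the libraries), Igfbp4 at 164, Igfbp6 at 104, Igfbp5 at 83.1, Igf1r at 68.6, Igf1 at 64.7, Igfbp3 at 62.0, Igfbp7 at 27.6 and Insr at 12.4. For Igfbp2 this lay between the granulosa-like level (174 and 202 CPM after TMM scaling) and the mesothelial-like level (1399 and 1243 CPM). With coarser clustering (Leiden resolution 0.5) these cells joined the granulosa-like cells, and Igfbp2 was then called higher in granulosa-like cells (log2 1.05, adjusted p = 0.00736, edgeR). Whether doublets take part in this cluster was not tested.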

How the results depend on the processing

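Of 560 alternative values of the 40 called pairs of gene and type, 528 kept their direction and their side of the threshold, 21 fell short of it, 8 (all from a single library, with no test) moved by more than the spread between libraries, and 3 turned direction: Igfbp4 in endothelial-like cells at 2000 UMIs per cell (log2 of -0.090), and Igfbp6 in germ-like (0.98) and granulosa-like cells (0.11) with the types weighted equally. The 15 pairs called higher stayed between 12 and 18 under every alternative run. The 25 called lower came to 16 with equal weights and 22 to 27 otherwise. Of the pathway list, 33 pairs were higher, against 11 after thinning and 17 when tested against a 2-fold change (glmTreat). In the other direction 42 were lower, against 24 after thinning and 18 with equal weights. Calls over all genes fell too. Higher calls went from 15648 of 109033 pairs to 7062 of 83270 after thinning and 10615 of 109033 with glmTreat. Lower calls went from 21314 of 109033 to 8602 of 83270 after thinning and 6043 of 100030 with equal weights. Without one replicate, where only the 2-fold limit and no test applies, there were 15 to 16 members higher, 26 to 27 lower, and 66 to 68 pathway pairs lower. Without the filter on low counts, 30 neighbouring pairs differed in place of 19. Thinning took the pairs with a UMI in over 50% of cells from 23 to 8. The cause was not tested in these cases. Thinned cells hold fewer UMIs, fewer genes are tested, and each cell then weighs alike in the pool of the rest. With the library as a replicate block, 15 pairs were higher, 27 lower and 21 neighbouring pairs differed. Of the pathway list 36 pairs were then higher and 44 lower. Over all genes and types, the block gave 15948 higher and 22653 lower of 109033 pairs. It ended none of the members' calls and 2 of the pathway list. These were Igf2 in endothelial-like cells (log2 2.52, adjusted p = 0.0912) and Stc2 in immune-like cells (2.39, adjusted p = 0.0669). The perivascular-like, endothelial-like and immune-like cells are few (33 to 65 cells per library), which limits the precision there.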
